A study of Mus musculus with 1111 samples.

Results

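Lyz2 and Cd52 are 2 of the 35583 genes in the count tables of this series, and both were chosen by earlier values of these same data, in which they were higher in microglia that carried more plasma protein. Their levels, shares of cells and joint detection over the plasma groups are therefore a description, and no test is given for them. The cells were single microglia from brains of 3-month-old mice, taken 20 hours after an injection of plasma proteins tagged with NHS-Atto647N, a fluorescent dye, and profiled by Smart-seq2, which copies full-length mRNA and makes 1 library per cell. By the plasma signal in the cell, the labels place each in plasma none, plasma low or plasma high, and all 3 groups received the same labelled plasma. Neither strain, sex nor the number of animals is given in the sources used here, no label names an animal, and each group therefore counts as 1 sample of cells. The labels also carry a TH number from 1 to 3 whose meaning is not stated. Errors below are the SD over these 3 sets of wells (n = 3), which describes wells and not animals. Where 3 values follow each other with no group named, they are in the order none, low, high.

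Lyz2 encodes lysozyme M, a secreted enzyme that cuts the peptidoglycan of bacterial cell walls and is stored in the granules and lysosomes of macrophages, monocytes and neutrophils. Its locus is the one used to drive Cre in the LysM-Cre mouse lines. Cd52 encodes a very short glycosylated peptide held on the surface of leukocytes by a glycosylphosphatidylinositol (GPI) anchor, the antigen of the antibody alemtuzumab in human cells. Both genes have been described as higher in microglia that respond to ageing or disease than in resting microglia.

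Of 1111 labelled cells 1045 were matched to a column of counts, and 987 passed a minimum of 50000 reads and 500 detected genes. Of these, 35.1% were plasma none, 35.6% plasma low and 29.4%, or 290 cells, plasma high. Their reads summed to between 21309816 and 49323522 for a group within a TH number. The median depth was highest in plasma high, at 267143 reads per cell, against 207429 for plasma none and 229931 for plasma low. Mitochondrial genes took a median of 0.603%, 0.794% and 0.970% of a cell's reads. Cells were sorted singly into wells, and no doublet caller was run. In every TH number the groups also filled separate plate columns, plasma none 1 to 8, plasma low 9 to 16 and plasma high from 17 on, so that column and group cannot be told apart.

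Lyz2 (ENSMUSG00000069516) lies on the minus strand of chromosome 10 at 117277331 to 117282321 in GRCm38, with 4 exons and an mRNA of 1316 bases. Its near-identical copy Lyz1 (ENSMUSG00000069515), the lysozyme gene of Paneth cells, lies 5476 bases away at 117287797 to 117292868 on the same strand. The coding sequences of the pair, stop codon included, differ at 22 of 447 bases and are 95.1% identical, so reads of one could in part be counted for the other, and the Lyz2 values are uncertain in that respect. The stretch with the most differences, coding bases 61 to 120, is shown for both genes in the coding direction from GENCODE M21, with the 9 bases that differ in capitals.
Lyz2: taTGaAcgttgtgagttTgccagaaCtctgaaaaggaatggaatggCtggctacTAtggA
Lyz1: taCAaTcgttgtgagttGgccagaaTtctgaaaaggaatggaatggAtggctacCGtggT
Of all windows of 50 bases in the Lyz2 mRNA, 15.4% occur unchanged in the Lyz1 mRNA, against 5.96% of windows of 75 bases and 1.97% of windows of 100 bases. The passing cells held 103035 reads of Lyz2 and 20 of Lyz1, or 0.194 Lyz1 reads per 1000 Lyz2 reads. All 16 cells with a Lyz1 read also had Lyz2 reads, with a median of 580, and no cell had more than 3 Lyz1 reads. Lyz1 was thus near 0 in every group, with 4, 4 and 12 reads. Reads that fit both genes were not identifiable from the counts.

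The sequences around the start of transcription are shown because the copies are alike there too, while their reads differed this widely. The windows from 250 bases before to 50 after the start, from RefSeq in GRCm38.p6, are shown with each match to AGGAAG or its reverse complement CTTCCT in capitals. This is the core sequence bound by the myeloid factor PU.1, and it was chosen after the sequences were seen. The windows are chr10:117282223-117282522 for Lyz2 and chr10:117292819-117293118 for Lyz1, both on the minus strand.
Lyz2: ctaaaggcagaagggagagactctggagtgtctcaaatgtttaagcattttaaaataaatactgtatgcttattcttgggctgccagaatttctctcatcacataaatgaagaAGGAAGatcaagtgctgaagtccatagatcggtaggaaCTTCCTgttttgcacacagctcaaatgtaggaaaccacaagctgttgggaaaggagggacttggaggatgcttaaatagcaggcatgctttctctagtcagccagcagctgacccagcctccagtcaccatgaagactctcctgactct
Lyz1: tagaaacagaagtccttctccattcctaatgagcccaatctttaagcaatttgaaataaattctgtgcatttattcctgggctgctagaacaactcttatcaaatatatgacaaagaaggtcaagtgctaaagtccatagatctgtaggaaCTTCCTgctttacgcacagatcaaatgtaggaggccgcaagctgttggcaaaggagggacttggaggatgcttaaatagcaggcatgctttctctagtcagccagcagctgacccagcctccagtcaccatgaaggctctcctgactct
Set base by base without gaps, 67% of the 300 bases are identical, and of the last 60 bases before the start 1 differs. Lyz2 holds 2 matches and Lyz1 holds 1. Among 32851 promoter windows of the same length, 35.4% hold at least 1 match and 8.62% at least 2. A match is a description of these letters and not of a bound site.

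Cd52 (ENSMUSG00000000682) lies on the minus strand of chromosome 4 at 134082448 to 134095082. Its coding transcript has 2 exons and 514 bases and spans 134093536 to 134095082, whereas the span of a noncoding transcript covers 10057 bases of the antisense gene Crybg2. Whether the counting used strand is not given in the sources used here, and reads of overlapping antisense genes cannot be told apart without it. Crybg2 had 1 read in all passing cells, in a cell without Cd52, against 22667 reads of Cd52, and the coding transcript of Cd52 shares no base with it.

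The level of Lyz2 was above that of plasma none in plasma high in each set of wells. Reads of each group were summed within a TH number and given as CPM, the reads of a gene scaled to an equal total of reads in genes, with TMM factors. In plasma none Lyz2 stood at 302.1, 236.6 and 195.7 CPM in TH 1, 2 and 3, a mean of 244.8 ± 53.7 (SD, n = 3). In plasma low it stood at 236.4, 402.1 and 358.4 CPM, a mean of 332.3 ± 85.9. In plasma high it stood at 543, 415 and 558 CPM, a mean of 505 ± 78.2. All 3 values of plasma high lay above all those of plasma none and plasma low, while plasma none and plasma low overlapped through TH 1, where plasma low was the lower of the pair.

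The log2 ratio of Lyz2, taken within a TH number after adding 1 CPM to both levels, was 1.05 ± 0.39 for plasma high against plasma none, a 2.08-fold difference with ratios of 0.84, 0.81 and 1.51. For plasma high against plasma low it was 0.63 ± 0.57, with ratios of 1.20, 0.05 and 0.64, and without TH 1 it was 0.34. For plasma low against plasma none it was 0.43 ± 0.68, smaller than its SD, with ratios of -0.35, 0.76 and 0.87, and it ran from 0.20 without TH 3 to 0.82 without TH 1. The order of Lyz2 levels was therefore plasma high above the other groups, with plasma low and plasma none not separated beyond their spread.

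The means of Cd52 were also lowest in plasma none and highest in plasma high. It stood at 61.4, 37.5 and 55.5 CPM in plasma none, a mean of 51.5 ± 12.4 (SD, n = 3). In plasma low it stood at 83.4, 73.4 and 75.3 CPM, a mean of 77.4 ± 5.30. In plasma high it stood at 168.2, 81.3 and 81.9 CPM, a mean of 110.5 ± 49.97. Every value of plasma low and plasma high exceeded every value of plasma none, whereas plasma low and plasma high overlapped. The TH 1 value of plasma high stood apart from the other two.

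The log2 ratio of Cd52 was 1.03 ± 0.45 for plasma high against plasma none, a 2.04-fold difference with ratios of 1.44, 1.09 and 0.55. It was 0.61 ± 0.30 for plasma low against plasma none, with ratios of 0.43, 0.95 and 0.43. For plasma high against plasma low the ratio was 0.42 ± 0.50, smaller than its SD, and it was 0.13 without TH 1. A single cell held 34.7% of the Cd52 reads of plasma low in TH 3 and 21.7% of those of plasma high in TH 1. With the top cell left out of each sum, the ratios of Cd52 were 1.03, 0.56 and 0.46 for high against none, low against none and high against low.

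**Figure D1:**
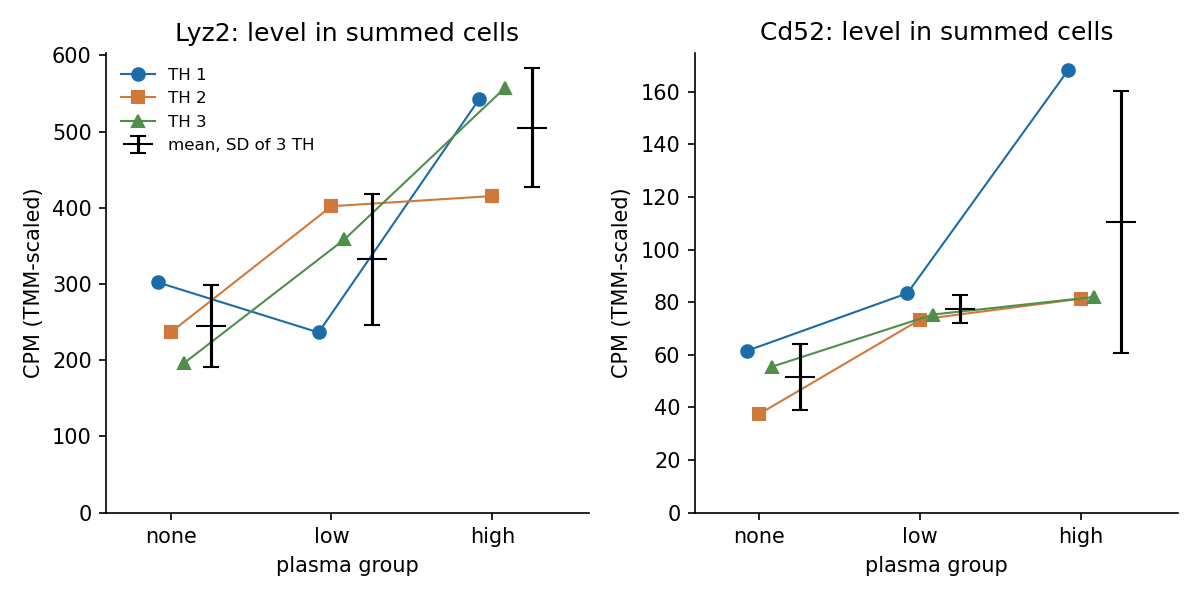
Level of Lyz2 (left) and Cd52 (right) in TMM-scaled CPM on the y axis, by plasma group on the x axis. Points joined by lines are the 3 TH numbers, and the black marks are their mean with the SD; plasma high lies above plasma none in each TH number for both genes, and the highest Cd52 value, 168.2 CPM, is TH 1.

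The ratios were set beside those of the other genes. Of 5534 genes that averaged 20 CPM or more and were detected in 10% or more of the cells of a group, 3.09% had a log2 ratio of 1 or more for plasma high against plasma none with the same sign in 3 of 3 TH numbers, as Lyz2 and Cd52 both did. The members lie just inside that bound: without TH 3 the ratio of Lyz2 was 0.83, and without TH 1 that of Cd52 was 0.82. By this ratio Lyz2 ranked 180 among the 5534, within the top 3.25%, and Cd52 within the top 3.52%. Of 724 genes within 2-fold of its mean level Lyz2 ranked 4, and of 3198 within 2-fold of its own level Cd52 stood within the top 3.28%.

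Direction alone was met more widely for plasma high against plasma none: 18.8% of these genes had the higher level in plasma high in 3 of 3 TH numbers, and 8.51% had levels without overlap. For plasma low against plasma none 16.7% of 5489 genes were higher in 3 of 3 TH numbers, which held for Cd52 and not for Lyz2, and 5.34% had no overlap, again Cd52 alone of the pair. For plasma high against plasma low 14.1% of 5709 genes were higher in 3 of 3 TH numbers, which held for both members, and 5.2% had no overlap, here Lyz2 alone. The 3 comparisons share their groups with each other.

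Levels of different genes can be set side by side only per length. Per kilobase of mRNA, Lyz2 stood at 252.5 ± 65.3 CPM in plasma low and 383.98 ± 59.4 in plasma high. Cd52, with its 514 bases, stood at 150.5 ± 10.3 and 214.9 ± 97.2 CPM per kilobase in the same groups. Over all exons of its transcripts, 1187 bases, it stood at 65.2 ± 4.46 and 93.1 ± 42.1 CPM per kilobase. The gap between the genes was thus narrower than in plain CPM by the mRNA length, but little changed by all exons. Lyz2 was the higher of the pair on both scales.

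Most cells of plasma none had no read of either gene, and the share of cells with a read was higher in plasma low and higher again in plasma high. For Lyz2 it was 36.2%, 33.6% and 26.5% in plasma none over TH 1 to 3, 45.8%, 44.4% and 46.6% in plasma low, and 58.4%, 58.3% and 59.1% in plasma high. Pooled over TH numbers, it was 32.1% of plasma none cells (95% Clopper-Pearson interval 27.2% to 37.3%), 45.6% of plasma low cells (40.3% to 50.95%) and 58.6% of plasma high cells (52.7% to 64.3%). Unlike the level of Lyz2, its share separated the 3 groups with no overlap of TH numbers. In plasma high it varied by 0.444 percentage points (SD), which is below the counting error of 1 TH number (48.2% to 68.1% in TH 1). The reads are PCR products without molecular identifiers, and all intervals cover counting error only.

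For Cd52 the share was 23.3%, 16.8% and 25.6% in plasma none, 37.3%, 42.7% and 33.6% in plasma low, and 52.5%, 43.8% and 45.2% in plasma high. Pooled, this was 21.97% (17.7% to 26.7%), 37.9% (32.8% to 43.2%) and 47.2% (41.4% to 53.2%). Here too the groups did not overlap, although the highest TH number of plasma low lay within about 1 percentage point of the lowest of plasma high. From plasma none to plasma high the mean share differed by 26.5 ± 5.45 percentage points for Lyz2 and 25.2 ± 5.06 for Cd52, of which 13.5 ± 5.73 and 15.97 ± 9.13 points lay between plasma none and plasma low, the latter 6.90 when detection was set at 100 CPM.

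**Figure D2:**
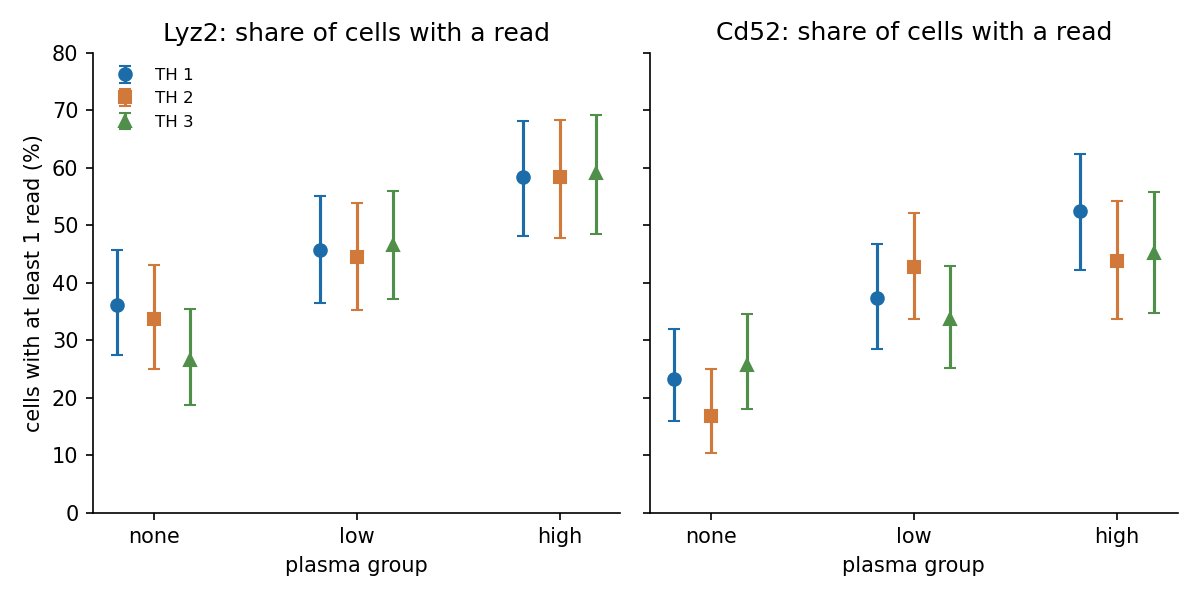
Share of cells with at least 1 read of Lyz2 (left) and Cd52 (right) in percent on the y axis, by plasma group on the x axis. Points are the 3 TH numbers with exact 95% intervals for counting error; for Lyz2 the points of plasma high lie between 58.3% and 59.1% and those of plasma none between 26.5% and 36.2%.

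Since cells of plasma high were read more deeply, the shares were also computed with every cell thinned to 50000 reads. The thinned share of Lyz2 was 30.8% ± 4.28, 44.2% ± 1.15 and 56.6% ± 1.76 (SD, n = 3), and that of Cd52 was 20.9% ± 4.35, 34.8% ± 4.62 and 44.4% ± 4.78. The TH numbers of the 3 groups still did not overlap for either gene. Thinning moved the shares little because a cell with any read of these genes usually had many: 4.76% of the 441 cells with Lyz2 and 10.1% of those with Cd52 had only 1 to 4 reads of it.

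At this equal depth Lyz2 had the largest gain in share between plasma none and plasma high of all 5534 genes, 25.7 ± 5.82 percentage points, and Cd52 the next largest, 23.5 ± 3.79 points, where the median gene gained 2.56 points. A thinned share that was higher without overlap in plasma high against plasma none was found for 18.2% of the genes, in plasma low against plasma none for 18.6%, and in plasma high against plasma low for 2.75%. All 3 together, as in Lyz2 and Cd52, were found for 23 genes or 0.416%. The pair was chosen on such values, and its place at the head of this order describes the choice. In the steps between neighbouring groups the pair was less far ahead: Lyz2 ranked 63 and Cd52 50 of 5489 genes for plasma low against plasma none, and 5 and 21 of 5709 for plasma high against plasma low.

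**Figure D3:**
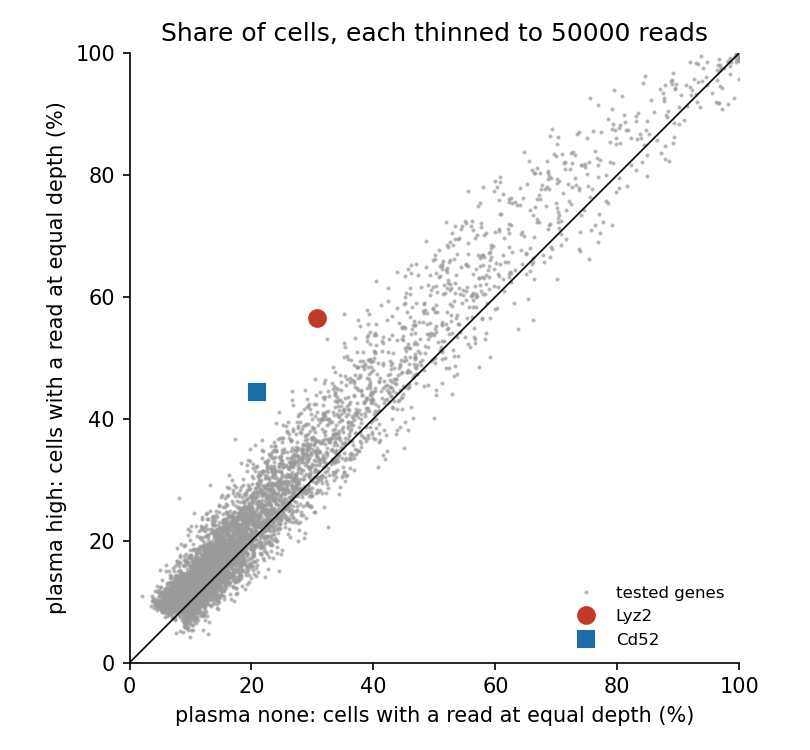
Each grey point is 1 of the 5534 genes, with the share of plasma none cells that have a read on the x axis and that of plasma high cells on the y axis, both in percent after thinning each cell to 50000 reads and as the mean over TH numbers. The line marks equal shares; Lyz2 (30.8% and 56.6%) and Cd52 (20.9% and 44.4%) lie farthest above it.

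The mean shares kept the order of the groups in cells split at the median depth, number of genes or mitochondrial share of their TH number. In cells below the median depth Lyz2 was read in 30.8% ± 5.72, 41.3% ± 4.73 and 54.04% ± 2.5 of them, and in cells above it in 34.004% ± 4.78, 49.3% ± 1.31 and 61.3% ± 0.867. For Cd52 the same values were 19.7% ± 6.08, 35.5% ± 4.43 and 45.2% ± 6.50 below, and 25.996% ± 1.16, 40.04% ± 7.43 and 48.5% ± 8.46 above the median depth. Among cells below the median mitochondrial share, Lyz2 went from 28.96% ± 2.39 in plasma none to 54.3% ± 1.08 in plasma high and Cd52 from 19.5% ± 4.18 to 49.6% ± 3.33. Among cells above it, Lyz2 went from 38.6% ± 10.9 to 61% ± 0.610 and Cd52 from 26.8% ± 5.94 to 45.99% ± 9.07. In cells below the median number of genes Lyz2 was read in 33.3%, 34.2% and 25% of plasma none over TH 1 to 3, in 22.9%, 32.7% and 50% of those of plasma low, and in 62.5%, 55.3% and 60.98% of those of plasma high, so that plasma low lay below plasma none in TH 1 and TH 2. For Cd52 single TH numbers also left the order in cells above the median: by number of genes plasma none (40.5%) exceeded plasma low (36.5%) in TH 3 and plasma low (58.5%) exceeded plasma high (48.3%) in TH 2. In TH 2 plasma low of Cd52 exceeded plasma high by depth as well (44.8% and 39.3%), and by mitochondrial share (46.7% and 41.2%). These splits were chosen after the data had been seen.

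By plate column the share of Lyz2 ran from 25.6% to 45.2% over the 8 columns of plasma none, with a median of 29.3%. It ran from 41.3% to 56.8% in plasma low and from 46.3% to 73.2% over the 7 columns of plasma high, with medians of 42.7% and 60.5%. For Cd52 the columns ran from 14.9% to 30.95%, from 33.3% to 44.7% and from 35% to 54.8%. The highest Lyz2 column of plasma none, column 1 at the plate's edge, was thus above the lowest column of plasma low, while the Cd52 columns of plasma none all lay below those of plasma low.

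In the cells that had a read, the level of either gene differed less between plasma none and plasma high than the share did. The median of these cells was 544, 548 and 697 CPM of Lyz2 in plasma none over TH 1 to 3, 382.2, 537 and 675 CPM in plasma low, and 685, 590 and 630 CPM in plasma high. The lower and upper quartiles, pooled, were 350.8 and 871 CPM in plasma none and 365.7 and 1108 CPM in plasma high, and single cells reached 4266 and 4619 CPM. For Cd52 the median was 224.9, 167.4 and 160.6 CPM in plasma none, 201.7, 129.2 and 155.05 CPM in plasma low, and 212.6, 144.2 and 123.9 CPM in plasma high. The 3 groups overlapped in these medians for both genes.

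On a log2 scale the difference in share and that in mean level of cells with a read add up to the difference in the mean over cells. For Lyz2 between plasma none and plasma high the share contributed 0.88 ± 0.25 and the mean level in positive cells 0.34 ± 0.08, out of 1.22 ± 0.30. For Cd52 the share contributed 1.12 ± 0.28 and the level -0.08 ± 0.17, out of 1.05 ± 0.45. Between plasma low and plasma high of Lyz2 the mean contributions were 0.38 ± 0.39 for the level and 0.36 ± 0.03 for the share. Over TH 1 to 3 the level contributed 0.83, 0.16 and 0.16 and the share 0.35, 0.39 and 0.35. The level thus exceeded the share in TH 1 alone. The mean Lyz2 level in positive cells was higher in plasma high in 3 of 3 TH numbers, by 0.37, 0.25 and 0.41, but the median was not, with 0.33, 0.11 and -0.15. The median of Cd52 was lower in plasma high in 3 of 3 TH numbers, by log2 ratios of -0.08, -0.22 and -0.37. How many of all genes had 1 direction in their positive cells was not computed, so these directions are not set apart from other genes.

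**Figure D4:**
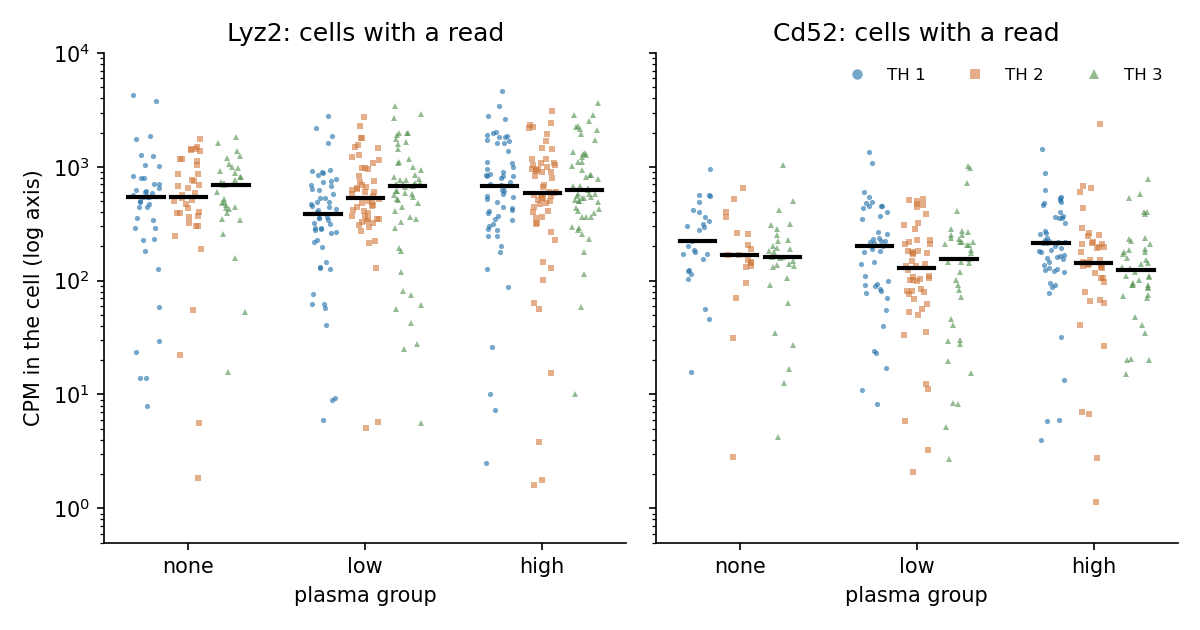
CPM per cell on a log axis for cells with a read of Lyz2 (left) or Cd52 (right), by plasma group on the x axis. Each point is a cell, placed by TH number, and black bars are medians, which stay between 382.2 and 697 CPM for Lyz2 and between 123.9 and 224.9 CPM for Cd52 while the number of points differs.

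Cells with reads of both genes went from 12, 5 and 7 in plasma none over TH 1 to 3 to 24, 25 and 23 in plasma low and 32, 22 and 28 in plasma high. As shares this was 6.92% ± 3.07, 20.5% ± 0.784 and 28.2% ± 4.67 (SD, n = 3), and pooled 24 cells (6.94%, 95% Clopper-Pearson interval 4.49% to 10.1%), 72 cells (20.5%, 16.4% to 25.1%) and 82 of 290 cells (28.3%, 23.2% to 33.8%). The TH numbers of plasma none lay below those of the other groups, while plasma low and plasma high came within 2 percentage points of each other at TH 2. Cells with neither gene made up most of plasma none and the smaller part of the other groups, going from 52.9% ± 1.76 through 37.04% ± 2.74 to 22.5% ± 2.88. Cells with Lyz2 alone made up 25.2% ± 4.38, 25.1% ± 1.85 and 30.4% ± 4.50. Plasma high was above both other groups in each TH number, by little in TH 1 (25.9%, 25.4% and 26.7%), and overlapped plasma none over TH numbers. Cells with Cd52 alone made up 14.99% ± 4.05, 17.4% ± 3.80 and 18.9% ± 3.33, with TH numbers of all groups overlapping.

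Joint detection was set beside the product of the shares, which is what unrelated detection would give. That product came to 24.4, 60.6 and 80.3 cells, beside the 24, 72 and 82 cells counted. The mean excess over the product was -0.04 ± 1.71, 3.28 ± 0.90 and 0.61 ± 3.02 percentage points. In plasma low it was positive in 3 of 3 TH numbers, at 3.27, 2.37 and 4.18 points, and over the alternatives it ran from 1.75 to 3.73, except for 0.19 when detection was set at 100 CPM. In the other groups its sign differed between TH numbers.

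Stated for Cd52, 21.6% of plasma none cells with Lyz2 had it (95% interval 14.4% to 30.4%) and 22.1% of those without (16.99% to 27.98%). In plasma low these were 45% (37.1% to 53.1%) and 31.9% (25.4% to 39.1%), and in plasma high 48.2% (40.5% to 56.01%) and 45.8% (36.7% to 55.2%). The share of Cd52 was thus lowest in plasma none both among cells without Lyz2 and among cells with it. Over cells, Spearman's rho between the CPM of the genes ran from -0.08 to 0.18 in the 9 sets of group and TH number, values too weak in sparse counts to be read as a relation.

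**Figure D5:**
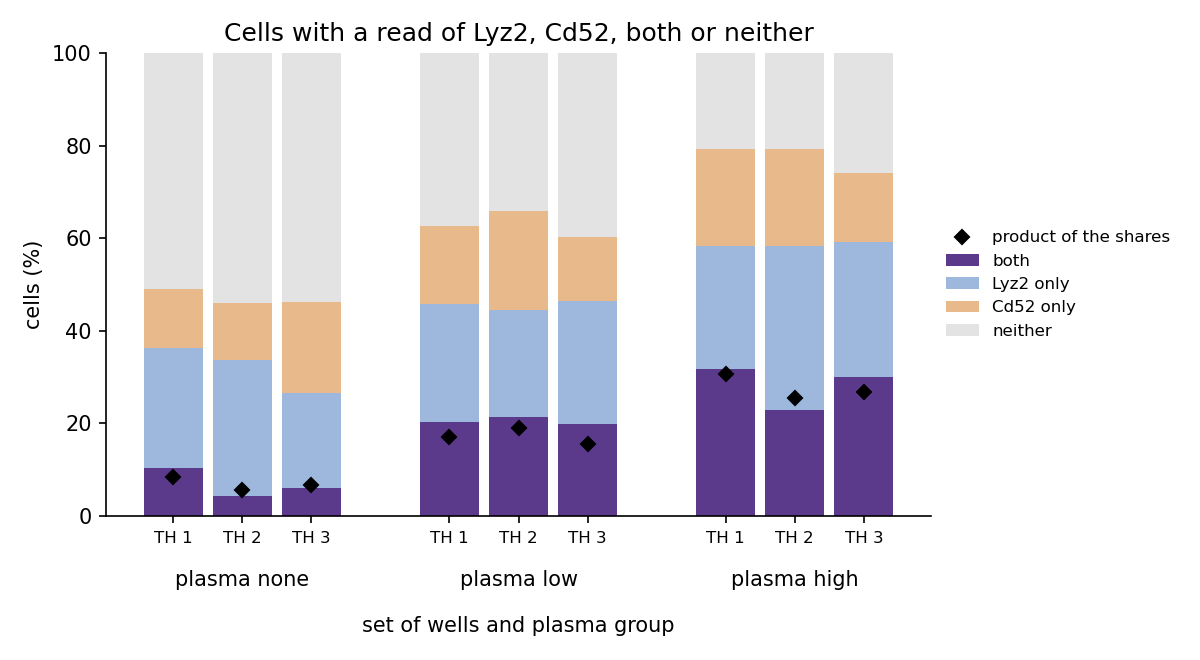
Each bar is 1 TH number of 1 plasma group and divides its cells, in percent on the y axis, into those with both genes, Lyz2 only, Cd52 only and neither. Black diamonds mark the product of the Lyz2 and Cd52 shares; the bars for both genes lie above them in all 3 TH numbers of plasma low and on either side of them in the other groups, at 4.42% to 10.3% in plasma none and 22.9% to 31.7% in plasma high.

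Cells with both genes also had more reads and genes than cells with neither, a median of 270792 against 215652 reads and 2042 against 1735 genes, and a higher mitochondrial share, 0.910% against 0.675%. Apoe, the lipid carrier that microglia raise in disease, had a read in 34.4% ± 3.75 of cells with both, 22.1% ± 2.43 of cells with Lyz2 alone, 10.6% ± 3.01 with Cd52 alone and 6.27% ± 2.5 with neither. The Apoe shares of cells with Lyz2 alone and Cd52 alone did not overlap over TH numbers, beside medians of 233357 and 232375 reads and of 1827 and 1943.5 genes. Cd74, the invariant chain of MHC class II, had a read in 14.9% ± 3.86 of cells with both, 5.77% ± 2.57 with Lyz2 alone, 9.54% ± 2.16 with Cd52 alone and 1.83% ± 1.66 with neither. These classes pool the plasma groups. Within plasma none Apoe was read in 25% of the 24 cells with both (9.77% to 46.7%) and 4.37% of those with neither (1.91% to 8.43%), and within plasma high in 42.7% of 82 (31.8% to 54.1%) and 9.23% of 65 (3.46% to 19.02%). The part of depth and mitochondrial share in these differences was not tested.

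Other cells that express Lyz2, among them monocytes, neutrophils and the macrophages at the brain's borders, were near absent by most of their markers. Of 8 markers of border-associated macrophages 6 had no read in any passing cell, among them Lyve1, Cd163, Pf4 and Ms4a7, and the summed level of the list per group and TH number ran from 0.217 to 1.34, from 2.64 to 22.2 and from 0 to 4.50 CPM, most of it Mrc1. Of 9 monocyte markers 6 had no read, Ly6c2, Plac8 and Chil3 included, and the list summed to at most 7.25, 8.42 and 7.57 CPM in the 3 groups. Of 10 neutrophil markers 8 had no read, S100a8, S100a9 and Ly6g included, and the sum of 330.6 to 437 CPM was almost wholly Csf3r. Only 24 cells had any read of a border-associated macrophage or monocyte marker, and 9 of them (37.5%) had Lyz2, against 44.9% of all other cells. Of the other brain and blood lists, 1 cell of plasma high, which had both genes, held 3 oligodendrocyte markers, and 1 cell of plasma none, which had neither, held 3 red cell markers. The oligodendrocyte list reached 49.6 ± 25.1, 49.7 ± 18.3 and 74.1 ± 15.4 CPM in sum. Neuron markers summed to at most 0.646, 2.32 and 57.98 CPM. Lymphocyte markers summed to 35.5 ± 0.382, 35.4 ± 8.81 and 49.9 ± 30.5 CPM, all of it Cd79b. Their part in the member values was not tested. The 8 microglia markers summed to 47124 ± 2052, 45516 ± 3924 and 45691 ± 3590 CPM.

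Of the neighbours of the members within 50 kb, 9530003J23Rik, a further lysozyme-like gene beside Lyz2, and Zfp683 beside Cd52 had no read. Ubxn11, beside Cd52, stood at 51.9 ± 10.6, 46.4 ± 8.59 and 67.3 ± 20.4 CPM, and had a read in 55.5%, 62.96% and 67.9% of cells. Sh3bgrl3 stood at 185.3 ± 33.3, 171.4 ± 27.2 and 246.9 ± 65.02 CPM and had a read in 56.1%, 63.8% and 68.6% of cells. Both had the higher level in plasma high against plasma none in 3 of 3 TH numbers, and their shares, not thinned to equal depth, followed the order of Cd52. Their mean level was lowest in plasma low, where Cd52 lay above plasma none in each TH number. Ubxn11 and Sh3bgrl3 overlap each other on opposite strands, and their shares were close to each other in every group. Whether the same reads were counted for both genes was not tested, so they cannot be taken as separate observations. Cep85, a centrosomal protein gene, stood at 47.99 ± 7.15, 58.4 ± 9.93 and 56.2 ± 9.74 CPM.

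Measured genes of the same roles had smaller ratios than the members for plasma high against plasma none. Of genes with a mean of at least 20 CPM, 17.2% of 6940 were higher in 3 of 3 TH numbers and 14.2% lower, with a median log2 ratio of 0.03. Of 21 antimicrobial effectors listed 6 were measured, of which 0 were higher and 1 was lower in 3 of 3, with a median of 0.04. Mpeg1, the pore-forming perforin-2, had the largest ratio at 0.30 ± 0.42. Of 35 lysosomal enzymes and membrane proteins, 15 were higher and 2 lower, with a median of 0.13, from Manba, the beta-mannosidase, at 0.92 ± 1.26 to Neu1, a sialidase, at -1.28 ± 0.95. Lyz2, at 1.05, lay above every measured gene of both lists.

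Cd52 was set beside a pair of lists of leukocyte surface proteins. Of 19 GPI-anchored leukocyte proteins listed 4 were measured, of which 1 was higher and 0 were lower in 3 of 3 TH numbers. Their median was 0.02, from Ly6e at 0.20 ± 0.12 to Cd48 at -0.20 ± 0.56. Of 16 other leukocyte surface glycoproteins 8 were higher and 2 lower, with a median of 0.09. Cd83, a marker of activated antigen-presenting cells, was the highest of them at 0.71 ± 0.18, and Cd47, the ligand of SIRP-alpha that restrains phagocytosis, the lowest at -0.38 ± 0.17. The ratio of Cd52, 1.03 ± 0.45, was above all 20 of these genes, and that of Lyz2 was too.

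The lists of microglial states differed from each other. Of 23 disease-associated genes, a list that holds neither member here, 17 were higher and 0 lower in 3 of 3 TH numbers, with a median of 0.47. They ran from Ccl4, a chemokine, at 3.71 ± 2.32 to Trem2, the lipid-sensing receptor, at -0.06 ± 0.22, and Lyz2 and Cd52 would each rank 8th among them. The floor of 20 CPM is a mean over both groups. Ccl4 (5.23 CPM in plasma none and 79.9 in plasma high), Axl (6.88 and 39.3) and Ccl3 (9.32 and 53.9) reached it only through plasma high. All of these had larger ratios than the members, so the rank and the top of the list depend on them. Of 18 homeostatic genes 2 were higher and 6 lower, with a median of -0.04, from Cst3, cystatin C, at 0.33 ± 0.08 to Tmem119 at -0.44 ± 0.15. Tmem119, a microglia-specific membrane protein, had levels in the opposite order to the members, at 4844 ± 184.96, 4199 ± 540.4 and 3576 ± 223.9 CPM.

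Of 16 myeloid transcription factors 2 were higher and 2 lower, with a median of -0.04, from Stat3 at 0.77 ± 0.51 to Nfkb1 at -0.59 ± 0.18. Of 18 interferon response genes listed 5 were measured, of which 1 was higher and 1 lower, with a median of 0.02. They ran from Rtp4 at 1.64 ± 0.67 to Stat2 at -0.70 ± 0.57. Of 9 antigen presentation genes 5 were higher and 0 lower, with a median of 0.25, from Cd74 at 2.70 ± 1.31 to Tap2 at -0.26 ± 0.44. Rtp4 (13.7 CPM in plasma none and 42.7 in plasma high) and Cd74 (6.93 and 40.9) reached the floor only through plasma high. Stat2 (26.8 and 17.7) reached it through plasma none. Of 80 ribosomal protein genes 52 were higher and 2 lower, with a median of 0.32, from Rpl15 at 0.86 ± 0.10 to Rpl5 at -0.51 ± 0.30. Of 8 protein-coding genes of the mitochondrial genome 7 were higher and 0 lower, with a median of 0.81, from mt-Nd5 at 1.02 ± 0.78 to mt-Nd3 at 0.38 ± 0.37. The members exceeded the median of each of these lists, and Lyz2 exceeded all 80 ribosomal and all 8 mitochondrial genes.

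Genes with little exon sequence, as both members are, had the higher ratios. The median log2 ratio for plasma high against plasma none was 0.17 for the 565 tested genes of 1 to 2 kb of exon, the class of Lyz2 and, by all exons of its transcripts, of Cd52, and 0.19 for those under 1 kb, where the coding mRNA of Cd52 alone would lie, against 0.02 for the 3231 genes over 4 kb, and 26.5% and 31.3% against 16.3% were higher in 3 of 3 TH numbers. The ratios of the members were far above these medians, and the part of length in them was not tested.

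The genes whose level followed Lyz2 most closely over the 9 sums, by Pearson's r of log2 CPM among 5224 genes, were Cltc at 0.96, Litaf at 0.94, Ap3m1 at 0.91, Evi2 at 0.90 and Iah1 at 0.90. Cltc, the clathrin heavy chain, stood at 206.4 ± 35.9, 238.2 ± 50.2 and 350.3 ± 32.9 CPM. Those closest to Cd52 were Eef1a1 at 0.97, mt-Nd4 at 0.95, B2m at 0.94, Rpl24 at 0.94 and Ppp2ca at 0.93. Eef1a1, the translation elongation factor, stood at 2530.4 ± 330.2, 2915 ± 105.6 and 3390.1 ± 445 CPM. The members correlated with each other at 0.70, which put Cd52 within the top 3.14% of genes for Lyz2 and Lyz2 within the top 5.13% for Cd52, and no gene was among the closest 5 of both. The 9 points share 3 groups and 3 TH numbers, and the values describe likeness over these sums only.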

How the data were processed

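The authors deposited 1 table per TH number with a whole-number count of reads per gene and cell. In 1 column of TH 3 the deposited values were treated as an expected count, since 2 values were not whole, and were rounded. Per the submitters' processing notes, bcl2fastq, Trim Galore, STAR 2.5.3a, Seurat and the mm10 build were named without roles. Per the file headers, alignments of TH 2 and TH 3 were reduced to top hits. The counting tool is not given in the sources used here. Of the labelled cells, 66 had no column matched and were not analysed here, and no 2 columns were identical.

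Of 35583 gene IDs, 35546 were found in GENCODE M21 and 99.6% of these had identical coordinates. Passing cells were summed per group and TH number (9 sums), scaled with TMM factors (edgeR 4.0.16, R 4.3.3) and compared as log2 ratios with a pseudocount of 1 CPM, on all genes. DESeq2 1.42.0 gave size factors for an alternative only. Thinned shares are exact expected values for drawing 50000 reads without replacement, not random draws (SciPy 1.17.1). The functions were tested on simulated data. The members, gene lists and markers were chosen with earlier results of these data known. Besides the members, the genes named were their neighbours within 50 kb and Lyz1, the largest rise and fall of each list at a mean of 20 CPM or more, the 5 genes most alike to each member, and Apoe and Cd74 in the detection classes. The largest fall of the antimicrobial list is not reported here.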

Additional observations from a re-analysis of the deposited data

How the results depend on the processing

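Cells could not be paired between groups, because replicate numbers only name cells within a group. Ratios and differences were taken within TH numbers, each of which holds all 3 groups, in all settings. Of the values recomputed under other settings, all but 30 moved by less than the SD over TH numbers, or for a share of genes by less than 1.5 times, and none of the members' differences changed direction. Leaving out a TH number always moves a mean over TH numbers by less than that SD. Those settings for levels, ratios, shares and joint detection therefore could not count as moved. A wide SD also lets large moves pass, as for the ratio of Lyz2 for plasma low against plasma none. The count of moved values is thus not a measure of how stable the results are. In plasma high Lyz2 and Cd52 lay above plasma none by level and by share under every alternative run. The bound of 1 for the log2 ratio was missed by Lyz2 with stricter cells (0.99) and without TH 3 (0.83). It was missed by Cd52 with library size only (0.99), stricter cells (0.94), a pseudocount of 10 CPM (0.92), without TH 1 (0.82) and just so without TH 2. The share of genes past that bound, 3.09%, became 1.46% with a pseudocount of 10 CPM and 4.58% to 6.60% with a TH number left out. The gain of Cd52 between plasma none and plasma high, 25.2 percentage points, became 16.7 at 100 CPM or more, 18.99 in cells below the median number of genes and 19.2 in cells above the median mitochondrial share, the last 2 chosen after seeing the data. The gain of Cd52 between plasma none and plasma low, 15.97 points, became 6.90 at 100 CPM. The gain of Lyz2 between plasma low and plasma high, 13.04 points, became 11.9 thinned to 100000 reads, 12.3 at 5 reads or more, 12.2 (12.16) with stricter cells and 12.2 (12.22) without the outermost wells. Cells with both genes in plasma low, 20.5%, became 17.9% and 19.7% thinned to 50000 and 100000 reads, 16.2% at 5 reads, 18.2% at 10 CPM, 10.3% at 100 CPM, 19.4% over all matched cells and 21.8% with stricter cells. In plasma high they became 19.2% at 100 CPM. The excess over the product in plasma low became 1.75 points at 5 reads and 0.19 at 100 CPM. With a TH number left out, the median log2 ratio ran from 0.13 to 0.22 for lysosomal genes, 0.083 to 0.23 for other surface glycoproteins, 0.47 to 0.55 for disease-associated genes, -0.020 to 0.073 for transcription factors, 0.12 to 0.31 for antigen presentation and 0.31 to 0.42 for ribosomal proteins. The median also changed sign for the interferon (-0.19 to 0.60), GPI-anchored (-0.10 to 0.22) and homeostatic lists (-0.07 to 0.04). The causes of these changes were not tested. Thinning to 100000 reads left out 45, 43 and 24 cells of plasma none, low and high.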

Other observations

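The 23 genes whose share of cells at equal depth went up in order over the plasma groups without overlap of TH numbers were, after Lyz2 and Cd52, led by Apoe, mt-Nd1, Gatm and Rnf5, which are named here after their values were seen. Apoe went from 8.10% through 14.9% to 27.02% of cells, and mt-Nd1, a subunit of respiratory complex I, from 75.5% through 87.7% to 92.7%. Gatm, the first enzyme of creatine synthesis, went from 54.4% through 63.1% to 71.1%. Rnf5, a membrane ubiquitin ligase, went from 10.6% through 19.5% to 24.6%. Ctsh, a lysosomal cysteine protease, went from 89.1% through 93.4% to 96.7%.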
